A study of Mus musculus with 29 samples.

Results

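Astrocytes that had been grown with bFGF as the only added growth factor were transduced with a Neurog2 retrovirus or with a reporter virus, and their RNA was compared. The comparison rests on the library labels alone: the 4 bFGF Neurog2 libraries against the 3 bFGF Control libraries, which are 7 of the 29 RNA-seq libraries of the series. Genes entered when their mean rlog value over all libraries was at least 1, which kept 15719 of 25239 genes. An rlog value is a regularised log2 read count, adjusted for library size and pulled towards the gene's mean where reads are few, so that a difference of 1 stands for a factor of 2 and the differences of weakly expressed genes are understated.

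All cells came from primary cultures of the cerebral cortex of wild-type C57BL/6J mouse pups. Their age is given as 5 to 6 days in the growth protocol and as 6 to 8 days in the design text, and the tissue as grey matter in the labels and as white matter in the methods. The cultures stood in medium with fetal calf and horse serum, to which bFGF was added at 10 ng/ml. Other cultures of the series received EGF as well, each factor again at 10 ng/ml. The retroviruses used the CAG promoter, which is active in most cell types, to drive Neurog2 together with the red fluorescent protein dsRED or, in the Control group, the green fluorescent protein GFP without a factor. The reporter, and with it the fluorescence used for sorting, therefore differed between the groups and cannot be told apart from the factor. Cells that received Neurog2 and Hmgb2 were transduced with the Neurog2 virus and with an Hmgb2 virus that carried GFP. Fluorescent cells were sorted 48 h after transduction. A retrovirus of this kind integrates in dividing cells. The number of animals or of separate cultures behind the replicate libraries is not stated. The p-values and SE rest on a spread between replicate libraries that was estimated over all 8 groups and 29 libraries. It is not the spread of the 7 compared libraries alone, and it may in part be technical.

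Neurog2 is a basic helix-loop-helix (bHLH) transcription factor that starts neuronal differentiation in dorsal forebrain progenitors. Proneural factors of this family pair with E proteins, bind E-box motifs and switch on later bHLH factors, corepressors and the Delta ligands with which a differentiating cell signals through Notch to its neighbours. Astrocytes forced to express such a factor can take on neuronal features, and the growth factors in the medium before transduction are the variable that the study set out to examine.

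A total of 47 genes were higher with Neurog2 by more than 2-fold at an adjusted p under 0.05, which is 0.299% of the genes tested, and 1 gene was lower, or 0.00636%. With no limit on the fold, 53 genes were higher (0.337%) and 2 were lower (0.0127%), and single genes are called by this rule below. These counts depended on the fit: only the 7 compared libraries gave 10 genes higher and 0 lower by more than 2-fold. Weighting each library by its spread around the group means gave 237 and 78. The weights of Neurog2 replicates 1 to 4 were 0.432, 3.6, 0.491 and 0.751, so that this fit rested mostly on replicate 2 of the Neurog2 group. The 4 Neurog2 libraries did not overlap the 3 Control libraries in any of the 55 called genes. Such a gap between the groups was also present in 663 higher (4.22%) and 516 lower (3.28%) of all tested genes. The median difference over all tested genes was 0.0074, and 51.4% of them were above 0. At an unadjusted p under 0.05, 757 genes were higher (4.82%) and 542 were lower (3.45%). In the plot of difference against level, the called genes were found at low, middle and high levels.

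**Figure D1:**
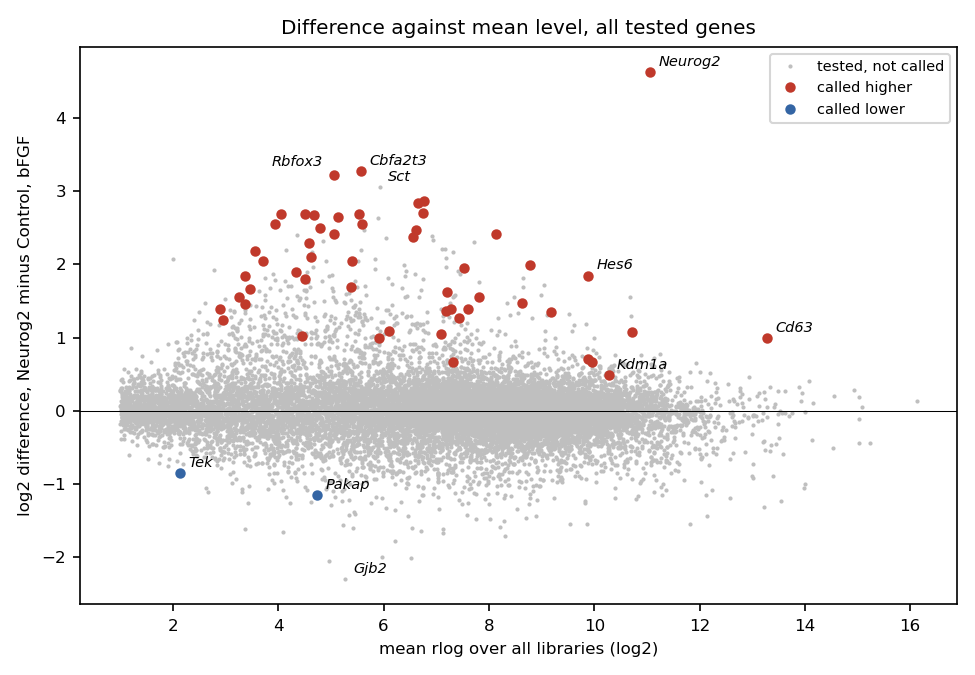
Difference between Neurog2 and Control in the bFGF culture (y axis, log2) against the mean rlog value over all 29 libraries (x axis, log2) for 15719 genes. Red points are the 53 genes called higher and blue points the 2 called lower. Grey points at the height of red ones, such as Sct at 3.05, and the lowest point, Gjb2 at −2.3, did not pass the test.

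The libraries were alike over all genes. Across genes, rlog values of pairs of Control libraries correlated at 0.972 to 0.986, of pairs of Neurog2 libraries at 0.954 to 0.983, and of a Control with a Neurog2 library at 0.952 to 0.99. Neurog2 replicate 3 correlated at a mean of 0.961 with its own group and of 0.977 with the Control libraries, so that on all genes it stood nearer to the latter. Depth per library is unknown, because no read counts were used here. The numbers of called genes moved with single libraries. More than 2-fold higher were 101 genes without Neurog2 replicate 3, but 23 to 43 without any other single library: 24, 23 and 33 without Control replicate 1, 2 and 3, and 43, 26 and 26 without Neurog2 replicate 1, 2 and 4. More than 2-fold lower were 18 genes without Neurog2 replicate 3 and 12 without Control replicate 3.

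Neurog2 itself showed the largest difference of all genes tested. Its rlog value was 8.22, 8.18 and 7.86 in the Control libraries and 12.81, 13.13, 12.36 and 12.56 in the Neurog2 libraries. The groups were far apart and each was narrow. The difference was 4.63 ± 0.40 (SE, adjusted p = 1.76e-07) on the log2 scale, a 24.7-fold higher level. Reads from the viral cDNA and from the gene on chromosome 3 (127633135 to 127635631 of GRCm38, forward strand, ENSMUSG00000027967.8) both count towards this value. Neurog2 was highest in replicate 2 and lowest in replicate 3. Over the 47 genes, the mean excess over the Control mean was 1.90, 2.28, 1.68 and 2.39 in replicates 1 to 4, and replicate 4 held the highest value in 25 of the genes while replicate 3 held the lowest in 25. The library with the highest Neurog2 value was therefore not the library with the highest values of most other genes.

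Since proneural factors bind E-boxes, the stretches around their transcription start sites were read for E-boxes. RefSeq promoters (GRCm38.p6, 250 bases before the start to 50 bases after it) were matched by symbol for 40 of the 47 genes, which gave 58 promoters. An E-box of the general form CANNTG, which reads the same on both strands, was present in 82.8% of these promoters, in 64.8% of the promoters of tested genes and in 72.3% of all promoters. The form CAGCTG, which also reads the same on both strands, was present in 31.0%, 15.9% and 16.3%, respectively. The form CAGATG, sought on both strands, was present in 13.8%, 12.2% and 17.2%. Each CAGCTG or CAGATG is also a CANNTG, and promoters of the same gene can share bases. The sequences below are those of 4 transcriptional regulators and 2 Delta ligands among the called genes, at the RefSeq start nearest to the start of the annotated gene, written 5′ to 3′ on the gene's strand with each CANNTG in capitals.
Cbfa2t3, chr8:122699060-122699359, reverse strand: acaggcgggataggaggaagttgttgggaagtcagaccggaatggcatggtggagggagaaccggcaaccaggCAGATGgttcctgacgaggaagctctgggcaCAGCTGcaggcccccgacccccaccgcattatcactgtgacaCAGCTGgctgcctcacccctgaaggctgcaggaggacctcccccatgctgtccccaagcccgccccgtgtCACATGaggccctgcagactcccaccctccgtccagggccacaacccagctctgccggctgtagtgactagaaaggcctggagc
Hes6, chr1:91413989-91414288, reverse strand: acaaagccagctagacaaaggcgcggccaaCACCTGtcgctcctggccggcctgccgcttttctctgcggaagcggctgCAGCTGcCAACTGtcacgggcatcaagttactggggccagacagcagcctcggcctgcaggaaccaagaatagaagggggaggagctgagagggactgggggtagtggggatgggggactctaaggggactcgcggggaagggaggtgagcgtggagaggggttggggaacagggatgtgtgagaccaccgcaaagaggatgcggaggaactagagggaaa
Nhlh1, chr1:172057547-172057846, reverse strand: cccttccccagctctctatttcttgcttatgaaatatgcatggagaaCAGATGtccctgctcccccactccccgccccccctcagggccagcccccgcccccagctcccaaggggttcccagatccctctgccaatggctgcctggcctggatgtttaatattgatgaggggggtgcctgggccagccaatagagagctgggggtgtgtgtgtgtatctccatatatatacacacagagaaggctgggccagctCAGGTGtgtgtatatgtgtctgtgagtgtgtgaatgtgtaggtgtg
Neurod1, chr2:79456587-79456886, reverse strand: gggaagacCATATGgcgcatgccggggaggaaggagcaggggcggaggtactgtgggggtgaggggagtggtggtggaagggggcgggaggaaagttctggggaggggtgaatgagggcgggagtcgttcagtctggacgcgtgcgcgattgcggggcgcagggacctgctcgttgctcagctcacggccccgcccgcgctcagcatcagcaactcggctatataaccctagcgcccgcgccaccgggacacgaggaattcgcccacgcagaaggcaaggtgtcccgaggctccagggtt
Dll1, chr17:15376883-15377182, reverse strand: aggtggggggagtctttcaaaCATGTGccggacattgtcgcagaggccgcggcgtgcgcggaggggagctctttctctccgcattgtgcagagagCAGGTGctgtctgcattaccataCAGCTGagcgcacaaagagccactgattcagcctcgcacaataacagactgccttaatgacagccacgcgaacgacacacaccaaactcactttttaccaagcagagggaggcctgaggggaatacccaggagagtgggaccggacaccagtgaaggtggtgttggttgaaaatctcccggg
Dll3, chr7:28301736-28302035, reverse strand: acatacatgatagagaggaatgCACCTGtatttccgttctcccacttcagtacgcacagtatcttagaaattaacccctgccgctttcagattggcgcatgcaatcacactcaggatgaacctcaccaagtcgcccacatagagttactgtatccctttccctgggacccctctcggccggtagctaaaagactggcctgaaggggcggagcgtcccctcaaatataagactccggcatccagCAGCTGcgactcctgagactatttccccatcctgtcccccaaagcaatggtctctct
In the Cbfa2t3 promoter, 1 CAGATG began 177 bases before the start and CAGCTG began 146 and 104 bases before it. Hes6 held CACCTG 220 bases, CAGCTG 171 bases and CAACTG 164 bases before the start. The 2 E-boxes of Dll3 were CACCTG at 228 bases and CAGCTG at 7 bases before the start, whereas the single E-box of Neurod1 was CATATG, 242 bases before the start. The Dll4 promoter held none in this window. These matches describe letters in the sequence and were not measured as binding.

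Transcription factors and corepressors of the neuronal lineage held the most called members of any list. Of 28 tested members, 7 were called higher and 0 lower, where 0.337% of all tested genes were called higher, and the median difference was 1.28, against 0.0074 over all tested genes. The list holds Neurog2, which the virus delivered. Without it, 6 of 27 members were called and the median was 1.28. Leaving out Control replicate 1, Control replicate 2, Neurog2 replicate 2 or Neurog2 replicate 4 left 4, 3, 3 and 3 called members of the 28. Cbfa2t3, a corepressor of the ETO family that binds bHLH factors, had the second largest difference of all. Its values were 3.64, 4.19 and 3.61 in the Control libraries and 7.04, 8.0, 6.48 and 6.84 in the Neurog2 libraries, a difference of 3.28 ± 0.28 (SE, adjusted p = 1.76e-07). The lowest Neurog2 library was far above the highest Control library.

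Hes6, a bHLH protein that counteracts the Notch effector Hes1, was at 8.54, 8.51 and 8.88 in the Control libraries and 10.64, 10.78, 9.79 and 10.72 in the Neurog2 libraries. The difference was 1.85 ± 0.24 (SE, adjusted p = 0.000255), and replicate 3 stood below the other 3 Neurog2 libraries. Nhlh1, a bHLH factor of newly born neurons, was at 2.85, 2.72 and 2.57 against 4.59, 5.87, 4.19 and 6.43, with a difference of 2.56 ± 0.48 (SE, adjusted p = 0.0116). Its Control libraries were close together while the Neurog2 libraries spread, with replicates 2 and 4 high. Neurod1, a bHLH factor that acts after the proneural genes, showed the same order of replicates at 3.49, 3.13 and 2.97 against 5.02, 5.87, 4.04 and 6.26. The difference was 2.1 ± 0.44 (SE, adjusted p = 0.0288). Rcor2, a subunit of the CoREST corepressor that holds the histone demethylase Kdm1a, was at 5.86, 6.26 and 7.61 against 8.32, 8.45, 8.82 and 8.51, with a difference of 1.95 ± 0.41 (SE, adjusted p = 0.0282). Here the spread was in the Control group, in which replicate 3 was high. Sox11, a Sox factor of immature neurons, was at 8.52, 8.19 and 8.27 against 9.38, 9.95, 8.85 and 10.49, with a difference of 1.34 ± 0.29 (SE, adjusted p = 0.0306). The calls of Neurod1, Nhlh1, Rcor2 and Sox11 depended on single libraries. Each was lost when replicate 2 of the Control group or replicate 2 or 4 of the Neurog2 group was left out, those of Neurod1, Rcor2 and Sox11 also without Control replicate 1, and those of Neurod1 and Sox11 also without Control replicate 3. The highest adjusted p of Neurod1, Nhlh1, Rcor2 and Sox11 in those fits was 0.162, 0.0663, 0.277 and 0.203, respectively. Neurog2, Cbfa2t3 and Hes6 held it without any single library.

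Several further factors of the list had differences above 1 that did not pass the test. Insm1, a zinc finger repressor of neuronal and endocrine progenitors, was at 5.17, 4.41 and 4.37 against 6.55, 7.37, 5.87 and 8.28. Neurod4, another bHLH factor, was at 1.98, 2.0 and 1.89 against 3.02, 4.65, 2.61 and 5.25, and Prox1, a homeobox factor, at 6.56, 5.99 and 6.96 against 7.0, 7.98, 7.3 and 8.83. In these genes the groups did not overlap, but the Neurog2 libraries spread widely. The differences were 2.37 ± 0.70 (SE, adjusted p = 0.201), 1.93 ± 0.67 (SE, adjusted p = 0.332) and 1.28 ± 0.43 (SE, adjusted p = 0.32). Of the members highest in level, Sox4 and Zeb2 had differences of 0.53 ± 0.28 and 0.018 ± 0.27 (SE), and neither was called. Neurod2, named here after its values were seen, missed the threshold narrowly at 1.37 ± 0.31 (SE, adjusted p = 0.0509).

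Chromatin proteins outside that list were also called. Kdm1a, the demethylase LSD1, was at 10.05, 9.71 and 10.13 against 10.42, 10.47, 10.41 and 10.49, which is a small difference of 0.49 ± 0.095 (SE, adjusted p = 0.0151) between narrow groups. H2az1, the histone variant H2A.Z, differed by 1.08 ± 0.24 (SE, adjusted p = 0.0495) and stood just inside the threshold. Bcl7a was the only called member among 15 tested subunits of neuronal BAF (SWI/SNF) complexes, where 0.337% of all tested genes were called higher. Its difference was 1.04 ± 0.23 (SE, adjusted p = 0.0439). The call was lost without Control replicate 1 or 2 or Neurog2 replicate 1, 2 or 4. That list had a median of 0.28, with 13 members above 0. The ATPase Smarca4 and Dpf2 of the list had differences of 0.064 ± 0.13 and 0.22 ± 0.13 and were not called. Mycl, a Myc family factor, was higher by 1.39 ± 0.22 (SE, adjusted p = 0.0018), and Prmt8, an arginine methyltransferase of neurons, by 2.42 ± 0.43 (SE, adjusted p = 0.006). The values of Prmt8 were 4.65, 3.94 and 3.23 in the Control libraries and 5.93, 6.32, 5.87 and 7.29 in the Neurog2 libraries.

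**Figure D2:**
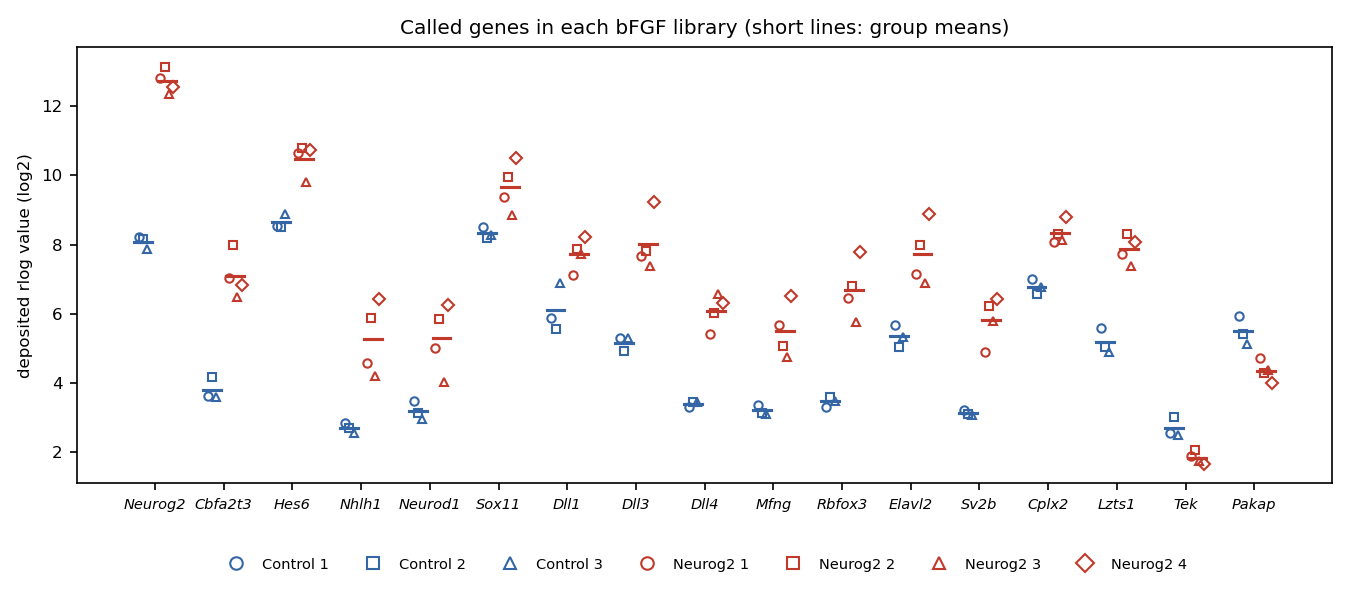
Deposited rlog values (y axis, log2) of 17 called genes in each library of the bFGF culture, with blue symbols for the 3 Control and red symbols for the 4 Neurog2 libraries and short lines for group means. The groups do not overlap in any gene shown, and Neurog2 replicate 4 (diamond) is often highest and replicate 3 (upward triangle) often lowest, while Tek and Pakap are lower with Neurog2.

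The Delta ligands Dll1, Dll3 and Dll4 and the modifier Mfng rose, while the Notch receptors did not pass the test. Notch signalling runs from Delta ligands on a differentiating cell to Notch receptors on its neighbours. Of 22 tested members of the pathway, 4 were called higher and 0 lower, where 0.337% of all tested genes were called higher, and the median was 0.20. Leaving out Control replicate 1, Control replicate 2, Neurog2 replicate 2 or Neurog2 replicate 4 left 2, 1, 2 and 2 of these calls, and the median without Neurog2 replicate 4 was 0.065. Dll3, a divergent Delta protein that acts within the cell that makes it, was at 5.3, 4.92 and 5.29 in the Control libraries and 7.66, 7.81, 7.38 and 9.22 in the Neurog2 libraries. The difference was 2.84 ± 0.57 (SE, adjusted p = 0.0189), with replicate 4 highest. Dll4, a ligand best known from blood vessels, was at 3.31, 3.46 and 3.46 against 5.41, 6.03, 6.57 and 6.32. Its Control libraries were nearly equal, and replicate 1 was the lowest of the Neurog2 libraries. The difference of Dll4 was 2.67 ± 0.38 (SE, adjusted p = 0.000729), and it held an adjusted p under 0.05 without any single library. Dll1, the main ligand of neural progenitors, was at 5.87, 5.56 and 6.88 against 7.13, 7.86, 7.73 and 8.21. Replicate 3 of the Control group was high in this gene and came within reach of Neurog2 replicate 1, and the difference was 1.63 ± 0.36 (SE, adjusted p = 0.0394). Mfng, a fringe glycosyltransferase that alters which ligands a Notch receptor answers to, was at 3.38, 3.14 and 3.12 against 5.67, 5.07, 4.77 and 6.51, with a difference of 2.29 ± 0.41 (SE, adjusted p = 0.00792). The receptors Notch1 and Notch2 were at 11.49, 10.44 and 10.87 against 10.26, 10.65, 10.85 and 11.06 and at 10.51, 9.74 and 10.53 against 9.42, 9.31, 10.46 and 9.21, respectively. Their groups overlapped, with differences of −0.23 ± 0.35 and −0.66 ± 0.35 (SE). The Notch target Hes5, named here after its values were seen, spread from 6.39 to 10.08 in the Neurog2 group against 5.34, 5.38 and 6.63 in the Control group, and was not called at 1.96 ± 0.89 (SE, adjusted p = 0.56).

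A transcript annotated beside Dll4 was also called. Gm14207 is transcribed from the other strand and overlaps the 5′ part of Dll4 by 411 bases on chromosome 2. It was at 2.21, 2.22 and 2.15 against 3.21, 3.64, 3.65 and 3.82, with a difference of 1.39 ± 0.21 (SE, adjusted p = 0.00111). A similar pair was 4930447F24Rik, a processed transcript whose 4850 bases on chromosome 9 lie within Bsn on the other strand. It was at 3.5, 3.53 and 3.24 against 7.12, 6.09, 4.89 and 5.58, a difference of 2.5 ± 0.36 (SE, adjusted p = 0.00074), beside one of 1.02 ± 0.23 (SE, adjusted p = 0.0462) for Bsn. The libraries do not keep the strand, so reads from such pairs cannot be told apart, and these 4 values are uncertain. Ackr1 overlaps Cadm3 by 493 bases on the same strand of chromosome 1. Cadm3 missed the threshold at 1.9 ± 0.43 (SE, adjusted p = 0.0504), with no overlap between the groups. Whether Ackr1 and Cadm3 share reads was not tested. Of 53 called genes with coordinates in the annotation, 10 overlapped another tested gene when genes were matched by symbol. Besides those above these were Neurod1 with Cerkl, Rdh5 with Bloc1s1, Dclre1c with Suv39h2, Kdm1a with Luzp1 and Hpca with Tmem54, none of which partners was called. Partners under another symbol are missed by this count. Mmel1 overlapped Fam213b, a symbol not among the tested genes, by 25 bases on the other strand of chromosome 4. Prxl2b, called but without coordinates under its symbol, has its RefSeq start on that strand of chromosome 4. Whether Mmel1 and Prxl2b share reads was not tested.

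Genes of axon guidance and adhesion had differences in both directions, and the 3 called members were all higher, where 0.337% of all tested genes were called higher. The list of 38 tested members had a median of −0.03, its mean differed by 0.13, and 18 members were above 0. No member was called without any 1 of the 3 Control libraries or without Neurog2 replicate 2 or 4, and the median was above 0 without Control replicate 3 (0.090) or Neurog2 replicate 1 (0.10). Cntn2, an immunoglobulin adhesion molecule of axons, was at 5.45, 4.83 and 5.27 in the Control libraries and 7.79, 8.67, 6.27 and 9.45 in the Neurog2 libraries. Replicates 3 and 4 were the extremes of the Neurog2 group, and the difference was 2.86 ± 0.61 (SE, adjusted p = 0.0321). Sema3g, a secreted semaphorin, was at 2.79, 2.81 and 3.03 against 4.26, 5.53, 6.85 and 5.64, with a difference of 2.7 ± 0.58 (SE, adjusted p = 0.0366). It is one of the genes in which replicate 3 was the highest library. Slit1, a ligand of Robo receptors, was at 5.12, 4.91 and 5.05 against 6.86, 7.79, 6.91 and 8.43, with a difference of 2.47 ± 0.50 (SE, adjusted p = 0.023). The other Slit ligands, singled out after their values were seen, lay the other way. Slit2 was at 9.12, 9.91 and 9.19 against 8.05, 7.84, 8.31 and 7.4 and Slit3 at 6.62, 7.06 and 6.45 against 5.73, 4.61, 5.46 and 4.61. Their groups did not overlap, but they were not called at −1.51 ± 0.39 (SE, adjusted p = 0.111) and −1.61 ± 0.47 (SE, adjusted p = 0.185). Ncam1 and Nrcam, among the members of highest level, had differences of −0.19 ± 0.17 and −0.49 ± 0.38 (SE).

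Genes of transmitter release were called in 4 of 30 tested members, all higher, where 0.337% of all tested genes were called higher. The list median was 0.40. Without Neurog2 replicate 4 the median was 0.24 and 2 members were called, and 2 were also called without Control replicate 1 or 2. Sv2b, a glycoprotein of synaptic vesicles, was at 3.23, 3.11 and 3.09 in the Control libraries and 4.9, 6.22, 5.78 and 6.43 in the Neurog2 libraries. The Control libraries were nearly identical and replicate 1 was the lowest of the Neurog2 libraries, with a difference of 2.69 ± 0.40 (SE, adjusted p = 0.00111). Cplx2, a complexin that clamps vesicle fusion, was at 7.0, 6.56 and 6.76 against 8.07, 8.3, 8.13 and 8.79, with a difference of 1.55 ± 0.25 (SE, adjusted p = 0.00185). Bsn, the active zone scaffold Bassoon, is given above with its antisense partner. Vamp2 and Syn2 were not called, at 0.025 ± 0.24 and 0.69 ± 0.45 (SE). Snap25 and Cplx1, chosen after their values were seen, were at 3.41, 3.44 and 3.93 against 4.83, 5.31, 4.18 and 6.34 and at 3.24, 2.76 and 3.16 against 4.2, 5.08, 3.93 and 5.7. They did not overlap between the groups and were not called, with adjusted p of 0.189 and 0.0626.

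Of 30 tested cytoskeletal and RNA-binding proteins, the 2 called were the neuronal RNA-binding proteins Rbfox3 and Elavl2, where 0.337% of all tested genes were called higher. The list median was 0.49. Without Neurog2 replicate 4 the median was 0.32, and 1 of the calls was lost when replicate 2 of either group or Neurog2 replicate 4 was left out. Rbfox3, a splicing factor whose protein is the marker NeuN, was at 3.32, 3.61 and 3.5 in the Control libraries and 6.45, 6.82, 5.76 and 7.78 in the Neurog2 libraries. No Neurog2 library was near the Control group, and the difference was 3.23 ± 0.50 (SE, adjusted p = 0.00138). Elavl2, an RNA-stabilising Hu protein, was at 5.67, 5.05 and 5.32 against 7.14, 8.0, 6.9 and 8.87, with a difference of 2.38 ± 0.46 (SE, adjusted p = 0.0151) and with replicate 4 highest. Markers of young neurons, named after their values were seen, did not pass the test. Dcx, a microtubule protein of migrating neurons, was at 4.44, 3.79 and 5.48 against 6.28, 7.48, 5.97 and 8.46, and Tubb3, the neuronal tubulin, at 9.44, 9.05 and 8.38 against 10.42, 10.34, 8.87 and 10.92. The differences were 2.48 ± 0.59 (SE, adjusted p = 0.0692) and 1.18 ± 0.33 (SE, adjusted p = 0.156). Map1b and Dpysl3, among the members of highest level, differed by −0.069 ± 0.23 and 0.067 ± 0.22 (SE).

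Of 20 tested genes for the delamination and migration of newborn neurons, 1 was called higher, where 0.337% of all tested genes were called higher. The list median was −0.05 while its mean differed by 0.25. At an unadjusted p under 0.05, 6 members were higher and 2 lower, where 4.82% and 3.45% of all tested genes were. The called member was Lzts1, a cytoskeletal protein that governs how differentiating cells leave the ventricular surface. It was at 5.6, 5.04 and 4.89 in the Control libraries and 7.71, 8.32, 7.4 and 8.09 in the Neurog2 libraries. The difference was 2.7 ± 0.31 (SE, adjusted p = 3.07e-05), and the call held without any single library. Lrp8, a reelin receptor, was at 9.42, 8.63 and 8.48 against 9.81, 10.26, 8.8 and 10.83 and was not called at 1.09 ± 0.38 (SE, adjusted p = 0.331). Cdh2, the N-cadherin of progenitor junctions, had a difference of −0.32 ± 0.27 (SE).

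Receptors, channels and calcium handling proteins of neurons were called in single cases. Among 29 tested postsynaptic genes, Chrna3, a nicotinic acetylcholine receptor subunit, was the 1 called member, where 0.337% of all tested genes were called higher. Its difference was 1.46 ± 0.31 (SE, adjusted p = 0.0282). The list median was −0.11 and its mean differed by 0.040. Drd2, the dopamine D2 receptor, was higher by 1.66 ± 0.34 (SE, adjusted p = 0.0249), and Gsg1l, an auxiliary subunit of AMPA receptors, by 1.9 ± 0.42 (SE, adjusted p = 0.0439). Hpca, a neuronal calcium sensor, differed by 1.56 ± 0.33 (SE, adjusted p = 0.0293) and Homer2, a scaffold of glutamate receptors, by 1.09 ± 0.21 (SE, adjusted p = 0.0151). Atp2b2, a calcium pump of the plasma membrane, was at 4.62, 4.06 and 4.39 against 6.3, 6.46, 5.5 and 7.36, with a difference of 2.05 ± 0.43 (SE, adjusted p = 0.027) and replicate 4 highest. None of 30 tested voltage-gated channels and none of 15 tested granins and neuropeptides was called by limma. At an unadjusted p under 0.05, 4 channels and 5 granins or neuropeptides were higher, where 4.82% of all tested genes were higher. With only the 7 compared libraries, or without Control replicate 3, 0 channels and 1 granin or neuropeptide were called higher. Without Neurog2 replicate 3, 1 of each list was called, and with weighted libraries 2 channels and 4 granins or neuropeptides. Leaving out any other single library gave 0 in both lists. Sct, the secretin gene, chosen after its values were seen, was close to the threshold at 3.05 ± 0.70 (SE, adjusted p = 0.0509). Sct was at 4.11, 4.24 and 4.15 against 7.75, 7.04, 7.59 and 6.52, and its groups were well apart.

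Of the 47 genes, 23 were members of a list and 24 were in none. The latter include genes given above among those of neurons, such as Drd2 and Hpca. Abcg1, a cholesterol exporter, was at 3.93, 4.69 and 4.88 in the Control libraries and 7.2, 7.16, 6.21 and 7.66 in the Neurog2 libraries. The difference was 2.56 ± 0.51 (SE, adjusted p = 0.0189), and all Neurog2 libraries were well above the Control group. Mylip, an E3 ligase that removes the LDL receptor, was higher by 1.69 ± 0.32 (SE, adjusted p = 0.0129). Ppp1r14a, an inhibitor of myosin phosphatase, was at 3.65, 3.89 and 3.58 against 7.04, 6.14, 6.14 and 6.11, with a difference of 2.65 ± 0.34 (SE, adjusted p = 0.000173) and 3 nearly equal Neurog2 libraries under replicate 1. Btbd17 was at 6.77, 6.11 and 6.79 against 9.07, 8.9, 8.92 and 9.03, with a difference of 2.42 ± 0.46 (SE, adjusted p = 0.0143) and little spread in the Neurog2 group. Hs3st2, a heparan sulfate sulfotransferase, was at 2.53, 2.55 and 2.43 against 4.38, 5.44, 3.84 and 5.09, with a difference of 2.18 ± 0.38 (SE, adjusted p = 0.00495). Some of the 47 genes are known from cartilage, collagen fibrils and endothelium. Col14a1, a fibril-associated collagen, was the 1 called member of the 38 tested matrix genes, where 0.337% of all tested genes were called higher. It was at 4.31, 4.48 and 5.03 against 7.55, 8.6, 6.6 and 6.45, with a difference of 2.7 ± 0.60 (SE, adjusted p = 0.0439). Ucma, a cartilage matrix protein, was at 3.35, 2.83 and 2.57 against 5.31, 6.07, 4.98 and 3.53, with a difference of 2.05 ± 0.38 (SE, adjusted p = 0.011). In both genes replicate 4 was the lowest Neurog2 library, the reverse of most neuronal genes. Ackr1, a chemokine receptor of red cells and venules whose gene overlaps Cadm3, was higher by 1.8 ± 0.27 (SE, adjusted p = 0.00121). Trp53i11 differed by 1.99 ± 0.29 (SE, adjusted p = 0.00109), Tbata by 1.84 ± 0.29 (SE, adjusted p = 0.00138) and Olfml3, a secreted olfactomedin-like protein, by 1.47 ± 0.23 (SE, adjusted p = 0.00138). Enzymes were represented by Rdh5, a retinol dehydrogenase, by Gamt of creatine synthesis, by the peptidase Mmel1 and by Prxl2b, with differences of 1.39 ± 0.29, 1.27 ± 0.26, 1.24 ± 0.21 and 1.36 ± 0.26 (SE).

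Under the 2-fold limit, 6 genes were called higher, among them Kdm1a, given above. Cd63, a tetraspanin of late endosomes, was at 12.42, 12.95 and 12.96 against 13.99, 13.75, 13.79 and 13.55, a difference of 0.99 ± 0.19 (SE, adjusted p = 0.0137). Its gene ends 770 bases from that of Rdh5 on chromosome 10. Ero1lb, an oxidoreductase of the endoplasmic reticulum, missed the 2-fold limit by the smallest margin at 1.0 ± 0.20 (SE, adjusted p = 0.0179), whereas Bsn and Bcl7a were just inside it. Snx1, a sorting nexin of the retromer, was at 9.61, 9.91 and 9.92 against 10.56, 10.50, 10.52 and 10.30, a difference of 0.66 ± 0.10 (SE, adjusted p = 0.00138), and Dclre1c, a nuclease of DNA end joining, differed by 0.66 ± 0.15 (SE, adjusted p = 0.0439). At the limit of the adjusted p, H2az1 and Bsn were inside at 0.0495 and 0.0462, and Cadm3 and Afap1 outside at 0.0504 and 0.0509. At the limit of the level, C130074G19Rik and Sox18 entered with mean rlog values of 1.0001 and 1.0009, and Cntnap3 and Glt1d1 did not with 0.99952 and 0.99862.

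Lower expression was called in 2 genes. Pakap, whose annotation spans the kinase-anchoring gene Akap2 and its neighbour Palm2 on chromosome 4, was at 5.95, 5.43 and 5.13 in the Control libraries and 4.72, 4.28, 4.39 and 4.01 in the Neurog2 libraries. It fell by 1.15 ± 0.23 on the log2 scale (SE, adjusted p = 0.0151). Tek, the angiopoietin receptor of endothelial cells, was at 2.58, 3.03 and 2.51 against 1.89, 2.08, 1.74 and 1.68, near the limit of the levels tested, and fell by 0.86 ± 0.17 (SE, adjusted p = 0.0159). Both calls were lost without Control replicate 2 or Neurog2 replicate 4, and that of Pakap also without Control replicate 1 or Neurog2 replicate 2, with highest adjusted p of 0.192 and 0.203. The largest differences downwards belonged to genes that were not called. Gjb2, the connexin 26 gene, was at 6.44, 7.98 and 7.37 against 4.12, 6.07, 5.55 and 4.11, a difference of −2.3 ± 0.63 (SE, adjusted p = 0.132). Krt19, a keratin, was at 7.5, 7.91 and 7.93 against 6.44, 4.97, 6.95 and 4.7 and Slc1a6, a glutamate transporter, at 7.54, 8.08 and 6.49 against 6.61, 5.43, 5.03 and 4.39. Their Neurog2 libraries spread as widely as the groups differed, with adjusted p of 0.476 and 0.228. The other genes among the 10 lowest, Crct1, Mme, Tinagl1, Lrrc15, Tnfsf15, Rtl3 and Sned1, had differences of −2.05 to −1.62 and adjusted p of 0.128 to 0.565.

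Lists of contractile and mechanical genes were lower in median without a single called member. All 35 tested genes of stress fibres and focal adhesions had differences below 0, with a median of −0.70, where 48.6% of all tested genes were below 0. At an unadjusted p under 0.05, 12 of them were lower and 0 higher, where 3.45% of all tested genes were lower. In 3 of them the libraries did not overlap, a gap found in this direction in 3.28% of all tested genes. The mean of the list was 11.66, 11.81 and 10.75 in the Control libraries and 11.33, 10.79, 10.53 and 10.20 in the Neurog2 libraries. Control replicate 3 was thus as low as Neurog2 replicate 2, and the groups overlapped. Of targets of the transcriptional coactivators YAP and TAZ, 20 of 23 were below 0, with a median of −0.65, and 10 were lower at an unadjusted p under 0.05. The mean of this list was 9.68, 9.61 and 9.31 against 8.93, 8.92, 9.14 and 8.80, and here the groups did not overlap. Ccn1, a secreted matrix protein and standard YAP target, was at 13.80, 13.85 and 12.58 against 12.65, 12.47, 12.21 and 12.75, a difference of −0.89 ± 0.29 (SE, adjusted p = 0.293), and Igfbp3 was at 13.92, 12.79 and 14.31 against 11.24, 11.68, 13.80 and 12.67, a difference of −1.33 ± 0.61 (SE, adjusted p = 0.571). Replicate 3 of the Control group overlapped the Neurog2 libraries in Ccn1 but was the highest library in Igfbp3. Cnn3, a calponin of high level, differed by −0.37 ± 0.27 (SE). Matrix genes as a list had a median of −0.26 while the mean differed by −0.051, with 16 of 38 above 0. Without Neurog2 replicate 4 that median was 0.12, with 23 above 0, and without Control replicate 1 it was −0.52. Sparc of that list was at 0.20 ± 0.24 (SE). Leaving out single libraries moved the median of the stress fibre list between −0.94 and −0.50, with 32 of 35 below 0 without Control replicate 2 and 34 without Neurog2 replicate 4, and with Neurog2 replicates 1 and 2 alone it was −0.27 with 29 below 0. The median of the YAP and TAZ list moved between −0.88 and −0.48. Members called lower were 4 of the stress fibre and 3 of the YAP and TAZ list without Control replicate 3, 2 of each without Neurog2 replicate 3, 7 and 8 with weighted libraries, and 1 of the YAP and TAZ list after centring the libraries on their medians.

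**Figure D3:**
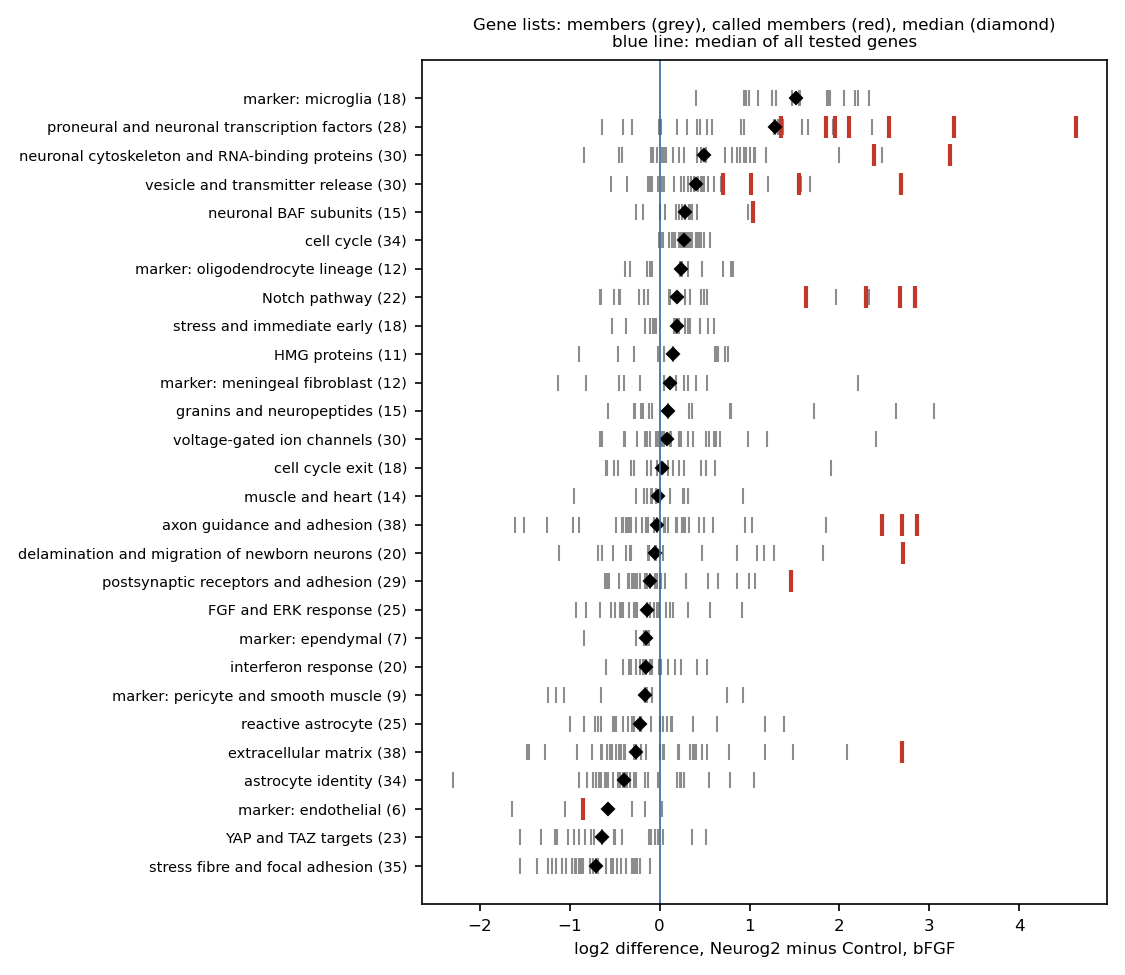
Log2 difference between Neurog2 and Control in the bFGF culture (x axis) for the tested members of 28 gene lists (rows, number tested in brackets). Grey ticks are members, red ticks called members, diamonds list medians, and the blue line the median of all tested genes, 0.0074. Transcription factors hold the most red ticks, 7, stress fibre genes are all to the left of the line, and microglia markers are all to the right of it without a red tick.

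Astrocyte identity genes were not called in either direction. Of 34 tested members, 27 were below 0 and the median was −0.40, with 1 member higher and 1 lower at an unadjusted p under 0.05. Without Neurog2 replicate 1 the median was −0.16. The mean of the list was 10.81, 10.34 and 10.64 in the Control libraries and 9.52, 10.44, 10.56 and 10.52 in the Neurog2 libraries. Only Neurog2 replicate 1 stood below the Control range. Gfap, the intermediate filament of astrocytes, was at 15.64, 15.04 and 14.76 against 14.28, 15.81, 15.32 and 15.93, and Aqp4, the astrocyte water channel, at 12.81, 12.07 and 12.89 against 10.24, 12.37, 12.80 and 12.29. Slc1a3, a glutamate transporter, was at 12.62, 11.92 and 12.48 against 10.38, 11.98, 12.43 and 11.97 and Aldh1l1 at 11.42, 10.13 and 10.32 against 8.86, 10.35, 10.60 and 10.36. These markers were among the strongly expressed genes in every library of both groups, as the label astrocyte implies. Their differences were 0.19 ± 0.69, −0.66 ± 0.75, −0.65 ± 0.61 and −0.58 ± 0.67 (SE). Reactive astrocyte genes spread more between libraries than between groups, with Lcn2, a secreted lipocalin, at 10.40, 12.25 and 14.92 against 8.76, 10.96, 15.09 and 13.28, and none of 25 was called.

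Cell cycle genes showed no call among 34 tested members by limma, in either direction, also at an unadjusted p under 0.05. The median was 0.27 and 33 members were above 0. Without Control replicate 3 the median was −0.0024 with 17 members above 0, and without Neurog2 replicate 1 it was 0.068 with 21 above 0. The median was 0.57 without Control replicate 2 and 0.50 without Neurog2 replicate 3. The list mean ranged from 8.32 to 9.46 in the Control group and from 8.45 to 9.80 in the Neurog2 group. Top2a, the topoisomerase of dividing cells, was at 10.03, 10.63 and 9.61 against 10.87, 10.34, 9.69 and 10.45. Cell cycle exit genes had a median of 0.029 and no call, and 1 of 18 was higher and 1 lower at an unadjusted p under 0.05. Cdkn1a was at a difference of −0.033 ± 0.16 (SE). Among high mobility group genes, whose proteins bend or loosen chromatin, 0 of 11 were called. At an unadjusted p under 0.05, 3 of them were higher and 0 lower, where 4.82% of all tested genes were higher. Hmgb2, which the study examined beside Neurog2, was at 9.34, 9.91 and 9.44 against 10.65, 10.09, 9.9 and 10.49. The Neurog2 libraries were mostly above the Control libraries, but replicate 3 stood below Control replicate 2, and the difference was 0.72 ± 0.27 (SE, adjusted p = 0.41). Hmgb1 was at 9.88, 10.58 and 9.91 against 10.97, 11.06, 9.89 and 11.04, a difference of 0.62 ± 0.38 (SE, adjusted p = 0.7). None of 25 FGF and ERK response genes, 18 stress and immediate early genes, 20 interferon response genes or 14 muscle genes was called, with medians of −0.14, 0.19, −0.16 and −0.018. At an unadjusted p under 0.05, 1 gene of these 4 lists was higher and 0 were lower.

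Markers of microglia were at higher levels in the Neurog2 libraries, except in replicate 3. All 18 tested markers had differences above 0, with a median of 1.51, but none was called. At an unadjusted p under 0.05, 2 were higher, where 4.82% of all tested genes were higher. Without Neurog2 replicate 4 the median was 0.92. Their mean was 5.75, 5.99 and 6.22 in the Control libraries and 7.87, 7.84, 5.24 and 9.03 in the Neurog2 libraries. Replicates 1, 2 and 4 of the Neurog2 group were thus above the Control range and replicate 3 was below it, and replicate 4 was highest both here and in most of the 47 genes. C1qa, a complement gene of microglia, was at 6.29, 6.33 and 5.48 against 8.64, 9.21, 4.91 and 10.73, and Cx3cr1, their fractalkine receptor, at 4.22, 3.47 and 3.36 against 6.48, 6.13, 3.07 and 6.64. Olfml3 among the called genes is also expressed by microglia, and its values in the Neurog2 group were 9.94, 9.86, 8.94 and 9.45. Entering the marker mean as a covariate, an alternative chosen after seeing the data, gave 42 genes higher by more than 2-fold and 0 lower. Among the 55 called genes, 39 kept an adjusted p under 0.05 in that fit and 16 did not, including Cntn2, Dll3, Elavl2, Neurod1 and Sox11, and all 55 kept their direction. The median of astrocyte identity genes was −0.0081 in that fit and that of cell cycle genes −0.14. The part of microglia in the differences beyond this fit was not tested.

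Markers of other cells that such cultures can hold were called in 1 case, Tek, where 0.0127% of all tested genes were called lower. Endothelial markers had a median of −0.58 over 6 tested members. Pecam1 was near the limit of the levels tested, a mean rlog of 1, in both groups at 1.37, 1.38 and 1.86 against 1.27, 1.23, 1.49 and 2.28. The endothelial list mean ranged from 4.69 to 5.66 in the Control group and from 4.22 to 5.05 in the Neurog2 group. Pericyte, meningeal fibroblast, oligodendrocyte and ependymal markers had medians of −0.16, 0.12, 0.24 and −0.15, and none of their 9, 12, 12 and 7 tested members was called. Their list means overlapped between the groups. In sorted bulk samples fewer cells of a type and less RNA per cell cannot be told apart.

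**Figure D4:**
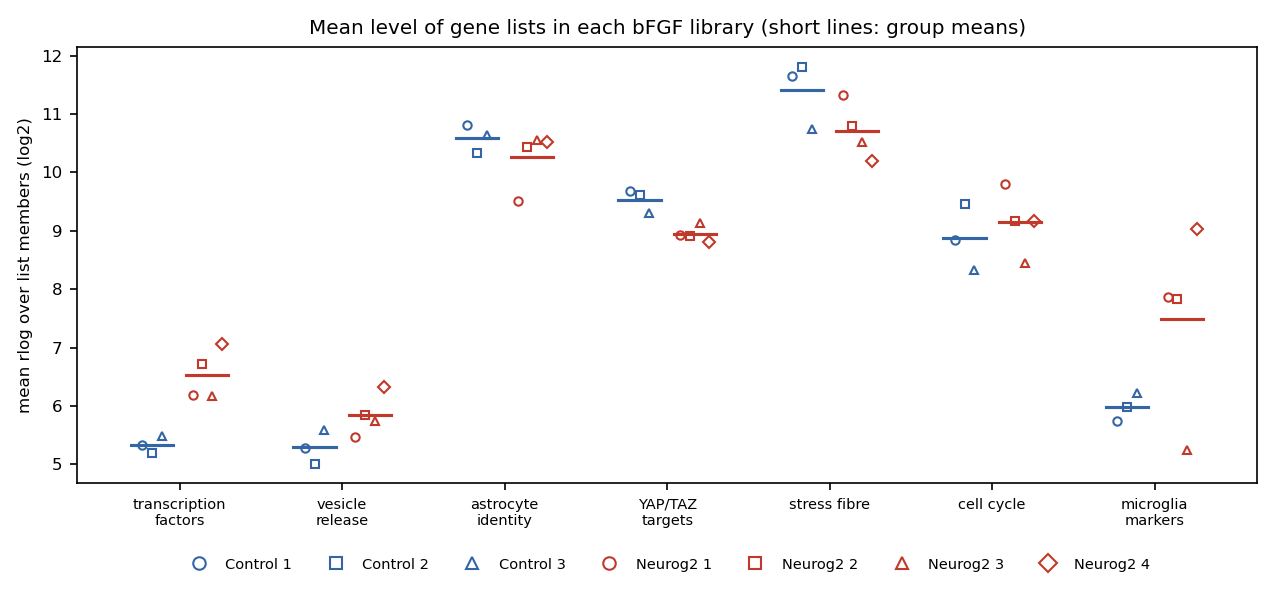
Mean rlog value over the tested members of 7 gene lists (y axis, log2) in each library of the bFGF culture, with blue symbols for the 3 Control and red symbols for the 4 Neurog2 libraries and short lines for group means. Transcription factors and YAP and TAZ targets are apart between the groups, stress fibre and cell cycle genes overlap, and microglia markers are high in Neurog2 replicates 1, 2 and 4 and low in replicate 3.

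The response to Neurog2 in the bFGF culture was then set beside that in the EGF + bFGF culture, which shares no library with it. There, 3 Neurog2 and 5 Control libraries gave 153 genes higher by more than 2-fold, or 0.973%, and 16 lower, or 0.102%. The numbers of libraries differ between the cultures, so the counts are not a measure of the size of the response. Of the 47 genes higher in bFGF, all had a difference above 0 in EGF + bFGF, and 41 were called there with any fold, a rule that called 1.35% of all tested genes higher. The median difference over the 47 genes was 1.99 in bFGF and 2.22 in EGF + bFGF, and 29 of them had the larger difference in EGF + bFGF and 18 in bFGF. The 6 genes not called there were Col14a1, Abcg1, Atp2b2, Mylip, H2az1 and Bcl7a. The genes were chosen on the bFGF values, so these figures are a description. The test of the difference between the responses gave 0 genes with a larger and 0 with a smaller response in bFGF by limma. At an unadjusted p under 0.05, 117 genes (0.744%) had a larger and 154 (0.98%) a smaller response, and the smallest adjusted p was 0.957.

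Among the called genes, Col14a1, Abcg1, Mylip and Atp2b2 had the larger response in bFGF by the widest margins. Microglia markers also differed between the cultures, with a median difference of 1.51 in bFGF and 0.081 in EGF + bFGF. The part of microglia in the differences of the responses was not tested. Mylip rose by 1.69 ± 0.32 in bFGF and had a difference of 0.54 ± 0.31 (SE, adjusted p = 0.511) in EGF + bFGF, and the difference of the responses was 1.16 ± 0.44 (SE, unadjusted p = 0.015). Abcg1 had 2.56 ± 0.51 in bFGF against 1.32 ± 0.49 (SE) in EGF + bFGF, and Col14a1 2.7 ± 0.60 against 1.23 ± 0.57 (SE). In the other direction, Slit1 had 2.47 ± 0.50 against 3.37 ± 0.48, Rcor2 1.95 ± 0.41 against 2.91 ± 0.39, and Hes6 1.85 ± 0.24 against 2.52 ± 0.23 (SE). Cbfa2t3 had nearly the same values in both cultures, 3.28 and 3.29, and the difference of the responses was −0.0089 ± 0.39 (SE). Neurog2 mRNA differed by 4.63 ± 0.40 in bFGF and by 5.51 ± 0.38 (SE) in EGF + bFGF, with −0.88 ± 0.55 between the responses (unadjusted p = 0.12). Tek and Pakap had differences of −0.18 ± 0.16 and −0.36 ± 0.22 (SE) in EGF + bFGF and were not called there.

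**Figure D5:**
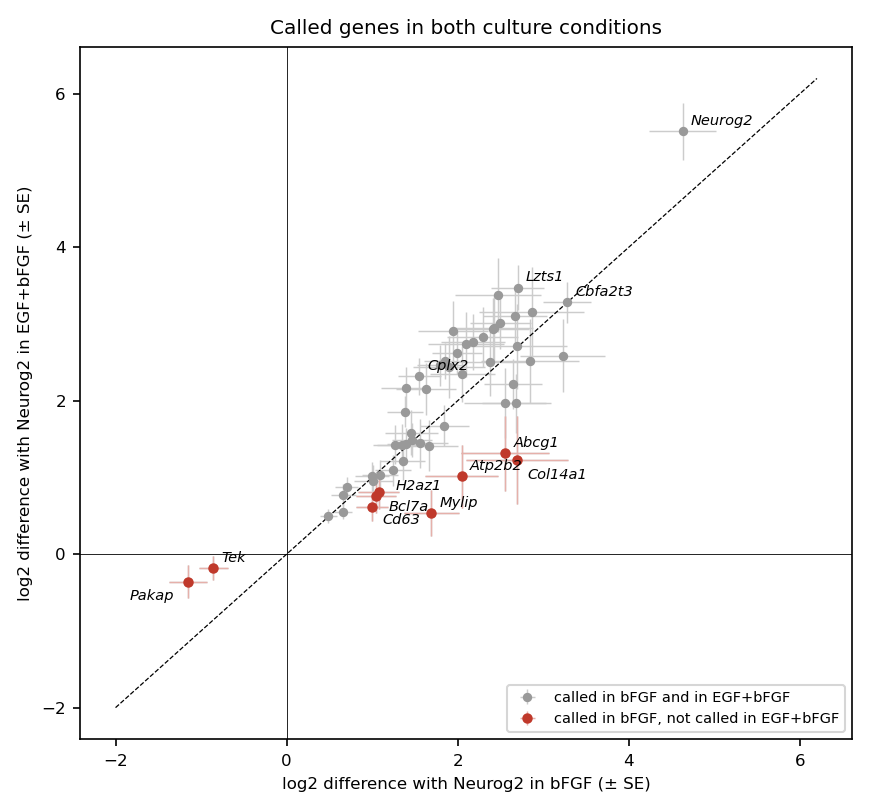
Log2 difference with Neurog2 in the bFGF culture (x axis) and in the EGF + bFGF culture (y axis) for the 55 genes called in bFGF, with bars of ± SE in each direction. The dashed line marks equal differences. Red points were not called in EGF + bFGF, among them Mylip, Abcg1 and Col14a1 below the line, and the test of the difference of the responses called no gene.

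Genes that the study singles out for this comparison were read in both cultures. Hes6, Slit1 and Sox11 were called in both. Insm1, Dscaml1, Prox1 and Lrp8 were called in EGF + bFGF alone, with differences of 3.15 ± 0.67 (SE, adjusted p = 0.0112), 2.79 ± 0.52 (SE, adjusted p = 0.00338), 1.87 ± 0.42 (SE, adjusted p = 0.0155) and 1.8 ± 0.36 (SE, adjusted p = 0.00618) there. In bFGF the differences were 2.37 ± 0.70 (SE, adjusted p = 0.201), 1.85 ± 0.54 (SE, adjusted p = 0.198), 1.28 ± 0.43 (SE, adjusted p = 0.32) and 1.09 ± 0.38 (SE, adjusted p = 0.331). Dscaml1, an adhesion molecule of the Dscam family, was at 5.44, 4.89 and 6.78 against 6.96, 7.49, 7.32 and 8.42 in bFGF, where its groups did not overlap. The differences of the responses were −0.78 ± 0.97, −0.94 ± 0.75, −0.60 ± 0.60 and −0.72 ± 0.52 (SE), each with an adjusted p of 0.957, so a call in 1 culture alone does not show that these genes answered differently. Neurod4, Gadd45g and Shf were called in neither culture by limma on the rlog values. The study tested read counts with DESeq2, a different test. It reported Neurod4 and Insm1 as upregulated in both cultures and Shf as induced in EGF + bFGF alone. Gadd45g, a stress and differentiation gene, was at 10.74, 11.04 and 10.55 against 11.07, 11.30, 10.77 and 11.80 in bFGF, and Shf, an adaptor protein, at 5.77, 6.48 and 5.93 against 7.46, 7.28, 6.1 and 8.12.

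The bFGF culture also had 3 libraries with Neurog2 and Hmgb2 together, compared with the same 3 Control libraries. That comparison gave 115 genes higher by more than 2-fold, or 0.732%, and 41 lower, or 0.261%. Because the Control libraries are shared, the values are given side by side only. Over the 47 genes, the median difference was 1.99 with Neurog2 and 2.11 with Neurog2 and Hmgb2, and 42 of them were called with any fold in the latter, a rule that called 1.03% of all tested genes higher. Neurod1 had 2.1 ± 0.44 and 3.29 ± 0.47, Cntn2 2.86 ± 0.61 and 3.79 ± 0.65, and Rbfox3 3.23 ± 0.50 and 3.78 ± 0.53 (SE). Ucma and Col14a1 had 2.05 ± 0.38 and 1.17 ± 0.41, and 2.7 ± 0.60 and 1.78 ± 0.64 (SE). Pakap had −1.15 ± 0.23 and −1.33 ± 0.24 (SE).

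The calls that least depended on single libraries were 19 of the 53 higher genes, which held an adjusted p under 0.05 whichever of the 7 libraries was left out. They were Cbfa2t3, Neurog2, Lzts1, Ppp1r14a, Hes6, Dll4, 4930447F24Rik, Trp53i11, Sv2b, Gm14207, Ackr1, Tbata, Rbfox3, Olfml3, Mycl, Cplx2, Snx1, Mmel1 and Hs3st2. The highest adjusted p over the 7 fits was 7.72e-06 for Cbfa2t3 and 0.034 for Hs3st2. Of the 55 called genes, 28, 32 and 21 lost the call without Control replicate 1, 2 and 3, and 11, 26, 1 and 29 without Neurog2 replicate 1, 2, 3 and 4, respectively.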

How the data were processed

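The authors prepared unstranded SMART-Seq v4 libraries from the sorted cells, aligned the paired-end reads to mm10 (GRCm38.p6) with STAR, obtained gene counts by HTSeq-count 0.9.1 on the GENCODE annotation and transformed the counts with DESeq2. The deposited values are the resulting rlog values, on a log2 scale and normalised for library size by the authors. Depth per library is not known from them.

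limma 3.58.1 (R 4.3.3) estimated 1 mean for each of the 8 groups from the 29 libraries, which left 21 residual degrees of freedom, and moderated the variances with a trend. Tests were two-sided, with Benjamini-Hochberg adjustment over 15719 genes. 9520 genes with a mean rlog under 1 were left out.

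The genes named were Neurog2, genes past both thresholds (values per library for the 20 largest differences), called list members with up to 4 uncalled members highest in level, genes the study names, the largest interactions, the 10 lowest differences, cell markers, and Hmgb1 and Hmgb2. Some of these are not reported here. Others are marked as chosen after their values were seen. Members and lists were chosen with earlier results of these data known. The mitochondrially encoded list had 0 of 13 members in the table. Gene positions are from GENCODE M21 (GRCm38), sequences from RefSeq. Alternatives covered the filter, the scaling, the libraries fitted, array weights, the variance trend, a replicate block, the fold threshold and leaving out each library. Figures were drawn with matplotlib 3.10.9 (Python 3.11.15).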

Additional observations from a re-analysis of the deposited data

Results flagged for a closer look

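In each group of 4 Neurog2 libraries, the gap of the highest or lowest library to its neighbour was divided by the range of the group, and a library is given here where that share passed Dixon's 95% critical value. Of 155 genes and list means tested, 11 passed, and chance flags about 1 in 20 such groups. Replicate 1 was low for Cnn3 (12.83) and Gria3 (8.62) and high for Ppp1r14a (7.04) and Tinagl1 (9.22). It was also low in the mean of the list for axon guidance and adhesion (6.75) and in that for astrocyte identity (9.52). Replicate 3 was low for Hes6 (9.79) and Hmgb1 (9.89) and high for Notch2 (10.46) and Tnfsf15 (4.74). Replicate 2 was high for Rsph1 (5.95), an ependymal marker. All values are rlog values on the log2 scale. Hes6 and Ppp1r14a held an adjusted p under 0.05 by limma without any single library. The mean of the astrocyte identity genes over the other 3 Neurog2 libraries lay between 10.44 and 10.56, inside the Control range of 10.34 to 10.81.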

How the results depend on the processing

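Of 1145 refits of single called genes, 811 kept direction and call, 334 lost the call and 0 reversed. Against 47 genes higher and 1 lower by more than 2-fold, and 53 and 2 with any fold, the counts were 27 higher by more than 2-fold and 34 with any fold without a filter, where 1 gene also had a smaller response in bFGF than in EGF + bFGF. With a mean rlog of at least 4, 1 gene was lower with any fold. Centring on medians and quantile normalisation each gave 3 lower by more than 2-fold and 5 with any fold. A fit of only the compared libraries gave 10 higher and 0 lower under both rules, and a fit of only the bFGF groups 18 and 0. Array weights gave 237 and 78 by more than 2-fold and 464 and 241 with any fold. No trend gave 2 lower, and a 1.5-fold threshold 2. With the microglia covariate, 0 were lower by more than 2-fold. Without Neurog2 replicates 3 and 4 together, 5 were lower by more than 2-fold and 8 with any fold. These last 2 settings were chosen after seeing the data. Leaving out each library gave 23 to 101 higher and 0 to 18 lower by more than 2-fold, and 24 to 122 and 0 to 30 with any fold. The smaller fits have fewer degrees of freedom and their own variance estimates, and the cause of the changes was not tested. Whether replicate numbers pair the libraries is not known. Deviations from the group means of same-numbered Control and Neurog2 libraries correlated at −0.040, 0.245 and 0.512. Neurog2 replicate 1 correlated best with Control replicate 2 (0.705), and Neurog2 replicate 3 with Control replicate 3 (0.512). Deviations within a group sum to 0, so these values cannot decide the question. A replicate block gave 43 higher and 1 lower by more than 2-fold and 4 lower with any fold, and a block within each culture 35 and 2 by more than 2-fold and 4 lower with any fold. Unknown depth limits the precision for weakly expressed genes.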
